A study of Mus musculus with 6 samples.

Results

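The 49 genes described here are the DNA replication and S-phase genes, out of 36083 genes in a table of mouse leukemia RNA-seq values. They were chosen by name from what their products do, with earlier results of these data known. They cover the origin recognition complex, the licensing factors, the replicative helicase and its activators, the polymerases and primase, the sliding clamp and its loader, replication protein A (RPA), the processing of Okazaki fragments, nucleotide supply and the E cyclins. All 49 were found in the table and all 49 passed the filter on low values.

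DNA replication is prepared in G1, when the origin recognition complex, Cdc6 and Cdt1 place rings of the MCM2-7 helicase on DNA. At the onset of S phase the kinase made of Cdc7 and Dbf4, with cyclin-dependent kinases, turns these rings into active helicases that hold Cdc45 and the GINS complex, and the polymerases follow. In blood, progenitors divide often and carry this machinery, while granulocytes lose it as they mature.

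The cells were a mouse model of blast crisis chronic myeloid leukemia (bcCML), the late phase of that disease in which immature blasts accumulate. Hematopoietic stem and progenitor cells of the KLS phenotype were taken from B6 mice that were WT or Sdc1-/-, and cells of both genotypes were transduced with retroviruses carrying BCR-ABL and NUP98-HOXA9. Cells positive for both oncogenes were transplanted into mice, which the labels give as NSG, an immunodeficient strain, and the general methods as CD45.1 B6 recipients. All mice of both cohorts were killed at one time, lineage-negative (Lin-) cells were sorted from the spleen, and RNA-seq gave 3 libraries labelled WT and 3 labelled Sdc1 KO. Sdc1 encodes syndecan-1, a heparan sulfate proteoglycan of the cell surface. The oncogenes act from retroviral vectors in both groups, and Sdc1 was disrupted in the donors' germline rather than removed from an established leukemia. Ages of the mice behind each library were not given in the labels. One legend of the study calls the WT libraries technical replicates, so the errors and p-values may cover technical spread alone.

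Values are TPM from kallisto, a unit already divided by transcript length and scaled to the library total, which the authors rescaled between libraries, so that library sums ran from 944973 to 1058263. The number of reads behind each value is unknown. The knockout label could not be checked by the transcript, because Sdc1 was higher with the Sdc1-/- label (3.85, 3.80 and 4.12) than in WT (1.75, 1.21 and 1.51), and the groups are called by their labels throughout. The paper describes an allele disrupted in the signal peptide sequence, so that mature protein does not reach the cell surface. It reports the deletion by PCR of genomic DNA and by immunofluorescence. Whether this allele leaves a transcript was not tested. Correlations of log2 values across the tested genes were 0.993 to 0.996 within groups and 0.968 to 0.972 between them. Granulocyte markers (12 of 12, of which S100a8 was the most abundant) were lower in the libraries labelled Sdc1-/-, with a summed value of 4737 to 4875 against 13190 to 14129 in WT. Of the other lists, 7 of 9 monocyte and macrophage markers were lower (246 to 254 against 545 to 568 in sum), as were 4 of 4 mast cell and basophil markers (145 to 147 against 406 to 411) and 4 of 6 erythroid markers (3060 to 3327 against 5199 to 5979). Against these falls, the monocyte marker Cx3cr1 and the erythroid marker Klf1 were called higher (log2 fold changes 0.27 and 0.21). The erythroid marker Gata1 was not called (0.074). Of 5 megakaryocyte markers 3 were lower and Pf4 was higher, and their sum overlapped between groups (487 to 499 against 476 to 503). Progenitor markers were present in both groups, at a sum of 171 to 180 against 169 to 175 in WT. Kit and Myb were called higher (log2 fold changes 0.18 and 0.37). The other 3 of 5 were called lower, which were Flt3 (-0.70), Cd34 (-0.24) and Ptprc (-0.23). When library sums were made equal 1 of 5 was called lower, Flt3 (-0.57). Most B cell (5 of 6), T and NK cell (6 of 7) and stromal markers (5 of 6) were below a mean of 1, and no marker was at 0 in all libraries. The summed value of 4 Y-linked genes was 68.1 to 78.4 in the libraries labelled Sdc1-/- and 0.276 to 0.308 in WT, so the sex of the cells and the genotype label cannot be told apart.

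The replication genes were, as a group, modestly higher in the cells labelled Sdc1-/-. Of the 49, 33 rose, 2 fell and 14 were not called, where called means an adjusted p under 0.05 in limma's test on log2(value + 1), with Benjamini-Hochberg adjustment over the 12155 genes whose mean reached 1. The background was high: 60.7% of all tested genes were called, 29.3% higher and 31.3% lower, against 71.4% of the replication genes called, 67.3% higher and 4.08% lower. Their median log2 fold change, labelled Sdc1-/- minus WT, was 0.22 (quartiles 0.11 and 0.39), beside -0.0097 (quartiles -0.24 and 0.23) for all tested genes. For 34 of the 49 the 3 values of each group did not overlap and lay higher with the Sdc1-/- label (32.6% of all genes). For 3 they lay lower without overlap (34.2% of all genes). The calls and separations given by role below are to be read beside these shares of all genes. In bulk RNA, a larger share of cells in S phase and more of these transcripts per cell cannot be told apart. Granulocyte and mast cell markers, and most but not all monocyte and erythroid markers, fell in the same libraries. Their part in the result was not tested.

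The way libraries are scaled sets how many of these genes pass. With each library brought to a sum of 1000000, 44 of the 49 were called higher (43.5% of all genes) and 2 lower (19.5% of all genes), since this scaling moved the median of all genes by 0.13 on the log2 scale. Relative to the median of all genes, the median of the 49 stood at 0.23 with the deposited scaling and 0.24 with equal sums. As a share of the library sum, the 49 genes made up 0.358%, 0.364% and 0.357% in WT. The same share was 0.457%, 0.462% and 0.461% in the libraries labelled Sdc1-/-, above every WT library.

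**Figure D1:**
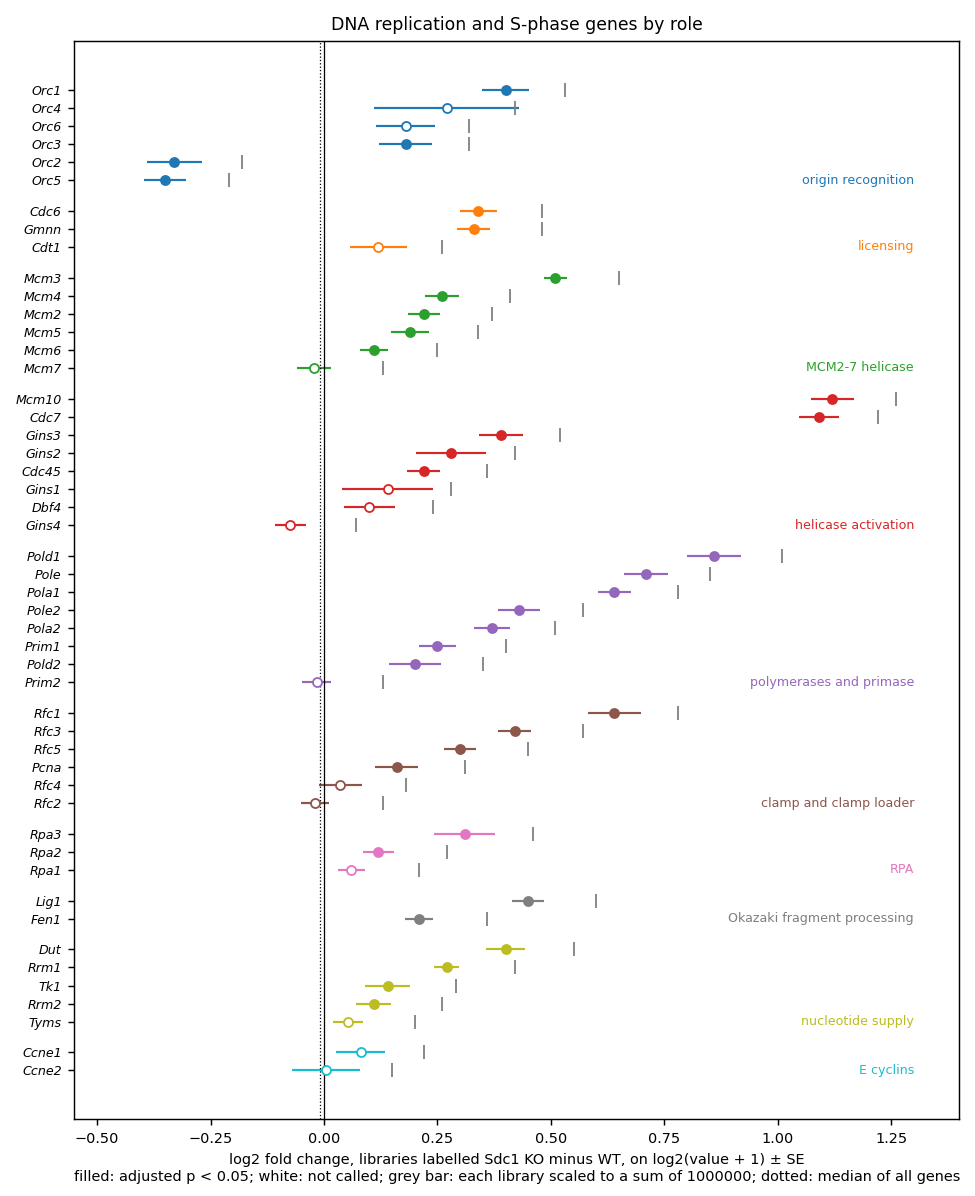
Log2 fold change of each of the 49 replication genes (horizontal axis, libraries labelled Sdc1-/- minus WT, on log2(value + 1)), grouped by role, with bars for the SE. Filled points were called and white points were not, grey ticks give the value with each library scaled to a sum of 1000000, and the dotted line is the median of all tested genes at -0.0097. Points run from -0.35 for Orc5 to 1.12 for Mcm10, and 43 of 49 are above 0.

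Most changes were small. The ratio of group means reached 1.2 for 22 genes, 1.5 for 6 and 2 for 2, which were Mcm10 and Cdc7, and it was at or below 1/1.2 for the 2 that fell. Replicates were tight, with a median coefficient of variation within a group of 3.53% and a highest of 18.2% (Orc4 in the libraries labelled Sdc1-/-), and changes of under 1.2-fold passed the test. The genes were well expressed, with WT means from 7.36 for Gins3 to 391 for Pcna. Their median percentile was 93.3 among all genes of the table, of which 11369 were at 0 in every library. The median of their WT means was 49.9, beside 14.3 for all tested genes.

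The largest rises belonged to helicase activation, the step at which licensed origins fire. Mcm10, a chromatin-bound factor needed for the helicase to unwind origin DNA, had values of 16.4, 16.1 and 14.7 in WT and 35.7, 35 and 35.4 in those labelled Sdc1-/-. Cdc7, the catalytic subunit of the kinase that phosphorylates MCM subunits, had values of 7.74, 7.90 and 7.61 in WT and 18.4, 17.2 and 17.2 in those labelled Sdc1-/-. Both groups were well apart, with every value labelled Sdc1-/- at over 2 times the highest WT value. The log2 fold changes were 1.12 (SE 0.0478, limma adjusted p = 4.0e-06) for Mcm10 and 1.09 (SE 0.0443, limma adjusted p = 3.3e-06) for Cdc7. Mcm10 lies on chromosome 2 (4989714 to 5012791, minus strand) and Cdc7 on chromosome 5 (106964322 to 106984432, plus strand) of GRCm38.

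Dbf4, the regulatory subunit that Cdc7 needs for activity, was not called on the deposited scaling. It had values of 38.8, 43.8 and 41.1 in WT and 42.0, 44.4 and 46.3 in those labelled Sdc1-/-, which overlapped (log2 fold change 0.10, limma adjusted p = 0.164), although it was called higher with equal library sums (0.24). The ratio of Cdc7 to Dbf4 within a library was 0.199, 0.180 and 0.185 in WT and 0.438, 0.386 and 0.373 in those labelled Sdc1-/-. The ratio was thus higher in every library labelled Sdc1-/- (means 0.188 ± 0.00992 and 0.399 ± 0.0343, SD, n = 3), and a ratio within a library does not depend on the scaling between libraries. An exact two-sided permutation test gave p = 0.1, the smallest that 3 against 3 libraries allow, and 0.25 after adjustment over the 5 ratios examined.

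The other 5 genes of this step are parts of the active helicase. Cdc45, which rides on the MCM ring, rose from 28.6 to 33.4 in the mean (log2 fold change 0.22). Of the 4 GINS subunits, Gins3 rose by 0.39 and Gins2 by 0.28, while Gins1 (0.14, limma adjusted p = 0.259) and Gins4 (-0.074, limma adjusted p = 0.106) were not called. Gins2 had the highest level of the activation genes, at 54.2, 44.1 and 50 in WT and 61.3, 61.9 and 56.6 in those labelled Sdc1-/-. Gins3 had the lowest, at 6.97, 7.62 and 7.49 in WT and 9.75, 10.1 and 10.1 in those labelled Sdc1-/-. The subunits of this 4-part complex thus had log2 fold changes from -0.074 to 0.39, and Gins4 was lower in all 3 libraries labelled Sdc1-/- (45.1 to 46.2) than in any WT library (47.0 to 49.7) on the deposited scaling, though its change was 0.071 with equal library sums. It was not called under either scaling.

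Polymerase genes were the role with the highest median log2 fold change, 0.40, with 7 of 8 called higher (29.3% of all tested genes). Pold1, the catalytic subunit of polymerase delta, which copies the lagging strand, had values of 41.4, 39.8 and 42.6 in WT and 82.1, 75.3 and 70.3 in those labelled Sdc1-/-. Pole, the catalytic subunit of the leading-strand polymerase epsilon, had values of 17.5, 17.3 and 15.7 in WT and 28.1, 28.5 and 27.5 in those labelled Sdc1-/-. Pola1, the catalytic subunit of polymerase alpha, which extends primers, had values of 14.7, 15.4 and 14.8 in WT and 23.6, 24.1 and 24.0 in those labelled Sdc1-/-. None of these 3 catalytic subunits overlapped between groups, and 32.6% of all genes also lay higher without overlap. The log2 fold changes were 0.86 for Pold1 (SE 0.0593, limma adjusted p = 2.8e-05), 0.71 for Pole (SE 0.0489, limma adjusted p = 2.8e-05) and 0.64 for Pola1 (SE 0.0366, limma adjusted p = 1.2e-05). Pola1 lies on the X chromosome (93304767 to 93632155, minus strand), and the Y-linked genes also differed between the groups.

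In each of the 3 polymerases the catalytic subunit had a larger log2 fold change than the accessory subunit measured beside it, a difference given as a description. Pole2 rose by 0.43, Pola2 by 0.37 and Pold2 by 0.20. Pold2 was the most abundant of the 8, at 89.8, 81.7 and 85.3 in WT and 106, 93.5 and 96.4 in those labelled Sdc1-/-. The primase, which lays down the RNA primer, had one subunit that rose (Prim1, 0.25) and one that was not called (Prim2, at 32.4, 31.9 and 31.8 in WT and 31.7, 32.2 and 31.1 in those labelled Sdc1-/-). Prim2 overlapped between groups on the deposited scaling (log2 fold change -0.016, limma adjusted p = 0.683) and was called higher with equal library sums (0.13).

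**Figure D2:**
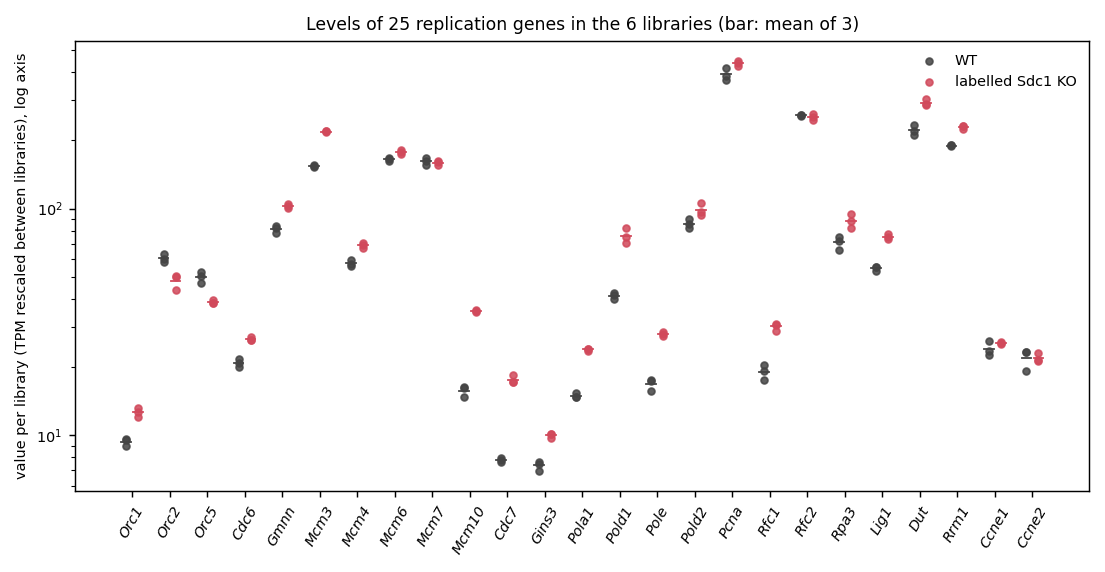
Value in each of the 6 libraries (vertical log axis, TPM rescaled between libraries) for 25 replication genes, with WT in grey, libraries labelled Sdc1-/- in red and a bar at the mean of 3. The 2 groups are far apart for Mcm10, Cdc7 and Pold1, overlap for Mcm7, Rfc2, Ccne1 and Ccne2, and lie in the opposite order for Orc2 and Orc5.

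The 6 subunits of the MCM2-7 helicase are present in equal numbers in the ring, and 5 of the 6 transcripts rose. Of all tested genes 29.3% were called higher. Mcm3 rose most, from 155, 152 and 154 in WT to 218, 219 and 219 in those labelled Sdc1-/- (log2 fold change 0.51). Mcm4 rose by 0.26, Mcm2 by 0.22, Mcm5 by 0.19 and Mcm6 by 0.11. Mcm7 stood at 163, 168 and 156 in WT and 163, 161 and 155 in those labelled Sdc1-/-, which overlapped, and was not called (-0.022, limma adjusted p = 0.639), although it was called higher with equal library sums (0.13). By mean level the WT order was Mcm6 (165), Mcm7 (162), Mcm3 (154), Mcm5 (128), Mcm2 (86.2) and Mcm4 (57.4), where the ranges of Mcm6 and Mcm7 overlapped. In those labelled Sdc1-/-, Mcm3 (219) stood first, ahead of Mcm6 (178), Mcm7 (160), Mcm5 (147), Mcm2 (101) and Mcm4 (69.0). Of the 31-base words in annotated Mcm7 transcripts, 26.8% also occur in transcripts of 3 other genes. The gene that shares the most is Gm5487, whose mean value was 0.14.

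Origin recognition was the one role with falls. Orc5, a subunit of the 6-part complex that binds origins, had values of 46.9, 52.5 and 50.3 in WT and 38.4, 38.4 and 39.5 in those labelled Sdc1-/-. Orc2 had values of 58.0, 63.0 and 60.2 in WT and 43.9, 50 and 50.3 in those labelled Sdc1-/-. Both lay lower in every library labelled Sdc1-/-. Orc5 fell by 0.35 on the log2 scale (SE 0.0463, limma adjusted p = 5.6e-04) and Orc2 by 0.33 (SE 0.0604, limma adjusted p = 0.00295), and with equal library sums both were still called lower, at -0.21 and -0.18.

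The other 4 subunits of the complex were not called lower. Orc1, the subunit whose level varies through the cell cycle, rose from 8.92, 9.50 and 9.60 in WT to 12.0, 13.2 and 12.7 in those labelled Sdc1-/- (log2 fold change 0.40, limma adjusted p = 5.7e-04). Orc3 was called higher by 0.18 although the groups overlapped, with a lowest value labelled Sdc1-/- of 45.2 and a highest WT value of 45.3. Orc6 was the most abundant subunit, at 72.5, 86.5 and 75.8 in WT and 87.4, 86.5 and 91.1 in those labelled Sdc1-/-. It was just short of the threshold (0.18, limma adjusted p = 0.0515), and was called higher with equal library sums. Orc4 varied most, at 23.4, 28.0 and 33.1 in WT and 27.7, 35.1 and 40.2 in those labelled Sdc1-/-, and was not called (0.27, limma adjusted p = 0.177). The summed level of the 6 transcripts, 253, 285 and 271 in WT and 255, 274 and 285 in those labelled Sdc1-/-, overlapped between groups.

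Of the licensing factors, Cdc6 and Gmnn rose. Cdc6, the ATPase that helps load the MCM ring, had values of 21.7, 20.0 and 20.8 in WT and 26.3, 27.2 and 26.4 in those labelled Sdc1-/- (log2 fold change 0.34, limma adjusted p = 3.7e-04). Gmnn encodes geminin, the inhibitor that binds Cdt1 in S and G2 and prevents a second round of licensing, and it had values of 82.3, 84.2 and 78.4 in WT and 101, 103 and 105 in those labelled Sdc1-/- (0.33, limma adjusted p = 2.5e-04). Neither gene overlapped between groups. Cdt1 itself was not called (0.12, limma adjusted p = 0.140) at means of 35.3 and 38.3, although it was called higher with equal library sums (0.26). The ratio of Cdt1 to Gmnn was 0.450, 0.381 and 0.469 in WT and 0.398, 0.358 and 0.364 in those labelled Sdc1-/-, and the groups overlapped (exact permutation p = 0.2, adjusted 0.333).

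The sliding clamp PCNA holds polymerases on DNA, and replication factor C, a complex of 5 subunits, loads it. Pcna had the highest level of all 49 genes, at 386, 416 and 370 in WT and 425, 439 and 447 in those labelled Sdc1-/- (0.16, limma adjusted p = 0.0214). Rfc1, the large subunit of the loader, had values of 19.2, 20.4 and 17.6 in WT and 31.1, 30.8 and 28.9 in those labelled Sdc1-/- (0.64, limma adjusted p = 1.1e-04). Neither overlapped between groups, and Rfc3 (0.42) and Rfc5 (0.30) also rose. Rfc2, at 258 and 254 in the mean, and Rfc4, at 90.5 and 92.8, were not called on the deposited scaling (limma adjusted p = 0.588 and 0.534) and were called higher with equal library sums (0.13 and 0.18). The loader subunits thus ranged in level from 19.1 for Rfc1 to 258 for Rfc2 in WT. The ratio of Pcna to Fen1, the flap endonuclease that PCNA recruits, overlapped between groups at means of 5.41 ± 0.398 and 5.23 ± 0.233 (SD, n = 3, exact permutation p = 0.6, adjusted 0.7). Of the 31-base words of Pcna, 23.3% also occur in 2 other genes. The gene that shares the most is Pcna-ps2, whose mean value was 1.69.

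RPA, which coats single-stranded DNA, has 3 subunits, of which 2 were called. Rpa3, the smallest, rose from 65.7, 74.8 and 72.2 in WT to 82.1, 88.2 and 94.8 in those labelled Sdc1-/- (0.31, limma adjusted p = 0.00562), and Rpa2 rose by 0.12. Rpa1, the most abundant, had values of 97.9, 95.4 and 93.9 in WT and 99.8, 101 and 98.6 in those labelled Sdc1-/-. Its groups did not overlap, yet it was not called (0.060, limma adjusted p = 0.122), although it was called higher with equal library sums (0.21).

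Both genes that finish Okazaki fragments rose. Lig1, the ligase that seals them, had values of 55.4, 53.1 and 55.3 in WT and 77.2, 73.2 and 74.8 in those labelled Sdc1-/- (0.45, limma adjusted p = 4.8e-05). Fen1 had values of 72.6, 71.1 and 73.0 in WT and 84.3, 85.2 and 81.4 in those labelled Sdc1-/- (0.21, limma adjusted p = 0.00105). Neither overlapped between groups.

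Nucleotide supply genes were among the most abundant of the 49 and moved little, with a median log2 fold change of 0.14. Dut, the dUTPase that keeps uracil out of DNA, had the largest rise, from 220, 233 and 212 in WT to 289, 305 and 287 in those labelled Sdc1-/- (0.40, limma adjusted p = 2.3e-04). Rrm1, the large subunit of ribonucleotide reductase, rose by 0.27, and Tk1, which salvages thymidine, by 0.14. Rrm2, the small subunit that is made in S phase, was called higher by 0.11 with an adjusted p in limma of 0.0454. Tyms, which makes dTMP, was not called (0.053, limma adjusted p = 0.212) at means of 184 and 191, but was with equal library sums (0.20). The ratio of Rrm2 to Rrm1 was 0.640, 0.659 and 0.612 in WT and 0.547, 0.565 and 0.599 in those labelled Sdc1-/-. It was lower in every library labelled Sdc1-/-, with an exact permutation p of 0.1 (0.25 after adjustment).

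The E cyclins, which switch on Cdk2 at the G1 to S transition, gave no call on the deposited scaling, and neither had an unadjusted limma p under 0.05. Ccne1 had values of 22.6, 26.1 and 23.5 in WT and 25.5, 25.2 and 25.7 in those labelled Sdc1-/- (0.081, limma adjusted p = 0.238). Ccne2 had values of 23.2, 23.2 and 19.3 in WT and 21.5, 23.0 and 21.2 in those labelled Sdc1-/- (0.0046, limma adjusted p = 0.963). Both overlapped between groups, as did their ratio at means of 1.10 and 1.16 (exact permutation p = 0.7, adjusted 0.7). With equal library sums Ccne1 was called higher (0.22) and Ccne2 was not (0.15).

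Many replication genes are targets of E2F factors, which bind a short core near the start of transcription. Promoter windows of 300 bases that end just past the start, from RefSeq on GRCm38.p6, were given for 40 of the 49 genes, and the core TTTNNCGC (either strand, N any base) was searched in them. It occurred in a window of 15 of the 40 genes (37.5%) and of 1602 of 27025 genes in all (5.93%). A gene counted if any of its windows held the core, and some genes, such as Orc2, have 2 windows. The 27025 include genes of low or no expression, and no background matched for level was used. Of the 15 genes with the core, 12 rose and the median log2 fold change was 0.39. Of the 25 without it, 17 rose and the median was 0.21. This split is a description and not a test. Of all 49 members 67.3% were called higher, and of all tested genes 29.3%. The windows printed are those of the 3 genes with the largest called rise that hold the core and of both genes that fell, 5′ to 3′ on the strand of the gene, with the core in capitals. A core on the opposite strand reads GCGNNAAA here.
Pold1 (chr7:44548766-44549065, minus strand): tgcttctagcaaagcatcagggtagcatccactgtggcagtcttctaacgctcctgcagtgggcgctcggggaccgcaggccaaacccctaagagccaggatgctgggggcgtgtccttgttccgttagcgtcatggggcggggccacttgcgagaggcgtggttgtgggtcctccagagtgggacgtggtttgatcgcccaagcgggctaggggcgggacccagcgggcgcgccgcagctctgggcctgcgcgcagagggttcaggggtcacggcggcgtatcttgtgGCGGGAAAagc
Pola1 (chrX:93632106-93632405, minus strand): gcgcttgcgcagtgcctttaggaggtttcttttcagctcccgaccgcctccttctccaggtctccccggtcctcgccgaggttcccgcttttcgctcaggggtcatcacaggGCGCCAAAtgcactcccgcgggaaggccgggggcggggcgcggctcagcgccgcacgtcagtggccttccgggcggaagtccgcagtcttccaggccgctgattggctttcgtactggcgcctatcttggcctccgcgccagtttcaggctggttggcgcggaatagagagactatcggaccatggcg
Mcm3 (chr1:20820263-20820562, minus strand): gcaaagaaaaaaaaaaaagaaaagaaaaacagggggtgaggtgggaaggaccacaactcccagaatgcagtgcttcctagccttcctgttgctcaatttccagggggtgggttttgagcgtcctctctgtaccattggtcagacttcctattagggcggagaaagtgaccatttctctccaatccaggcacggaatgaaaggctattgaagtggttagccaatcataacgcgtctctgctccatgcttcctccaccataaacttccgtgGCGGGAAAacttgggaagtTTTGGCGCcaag
Orc5 (chr5:22550289-22550588, minus strand): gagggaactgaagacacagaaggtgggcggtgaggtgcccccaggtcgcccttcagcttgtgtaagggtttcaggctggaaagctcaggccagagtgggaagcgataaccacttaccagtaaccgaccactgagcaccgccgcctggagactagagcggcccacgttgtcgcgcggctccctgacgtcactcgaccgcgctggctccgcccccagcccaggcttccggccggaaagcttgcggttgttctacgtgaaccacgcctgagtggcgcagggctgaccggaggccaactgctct
Orc2 (chr1:58505060-58505359, minus strand): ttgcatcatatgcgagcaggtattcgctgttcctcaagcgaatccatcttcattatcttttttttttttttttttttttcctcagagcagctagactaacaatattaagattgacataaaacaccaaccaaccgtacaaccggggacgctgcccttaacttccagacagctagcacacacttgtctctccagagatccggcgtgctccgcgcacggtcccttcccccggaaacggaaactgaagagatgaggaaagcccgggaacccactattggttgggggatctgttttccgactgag

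Counted from the RefSeq start, with the first transcribed base as 0, the Pold1 core begins at 39 and the Pola1 core at -138, both on the opposite strand. Mcm3, the subunit that rose most in the MCM ring, holds one core on the opposite strand at 19 and one on its own strand at 38. The windows of Orc5 and Orc2 hold none, and neither do those of Mcm10 and Cdc7, the genes with the largest rises, or of Rfc1, which says only that these letters are absent there. Mcm7, Cdt1 and Tyms hold the core and were not called on the deposited scaling.

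The rise was larger for replication genes of low level and long transcripts. The 18 with a WT mean under 40 had a median log2 fold change of 0.38 (12 called higher), the 20 from 40 to under 100 had 0.20 (13 called higher), and the 11 of at least 100 had 0.14 (8 called higher). All tested genes in the same ranges had medians of 0.029, -0.078 and -0.12, and 32%, 24.1% and 18.4% of them were called higher. The share of all genes called higher thus fell with level. Among the members, the share called higher was 12 of 18, 13 of 20 and 8 of 11. Over the 49 genes Spearman's rho of log2 fold change with WT level was -0.42, and over all tested genes -0.17. These are descriptions across genes, which are not independent, and the WT level also enters the fold change.

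Transcript length moved with the change in the whole table. In 4 groups of about equal size, split by the length of the longest annotated transcript, all tested genes had median log2 fold changes of -0.088 in the shortest and then -0.033, 0.011 and 0.077. The replication genes had medians of 0.17 (10 genes), 0.18 (15), 0.27 (16) and 0.49 (8) in the same groups, above the all-gene median in each. Mcm10, Pole, Pola1 and Rfc1 are in the longest group, and Cdc7 and Pold1 in the one before it. When a trend with length and GC content was removed, an alternative chosen after the data were seen, 36 of the 49 were called higher and 3 lower, the third being Rfc2 (-0.074, limma adjusted p = 0.048). Of all genes, 3629 were called higher and 3894 lower in that fit.

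**Figure D3:**
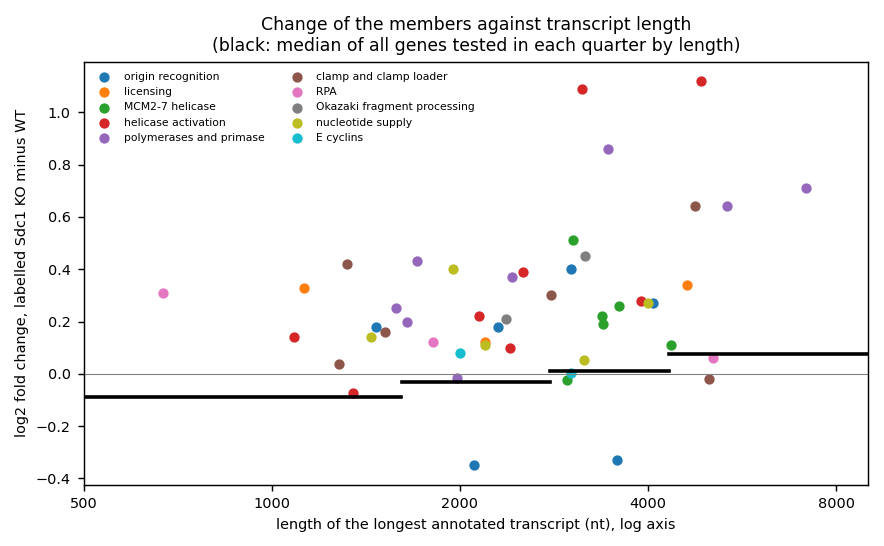
Log2 fold change of the 49 replication genes (vertical axis, libraries labelled Sdc1-/- minus WT) against the length of the longest annotated transcript (horizontal log axis, nt), coloured by role. Black lines give the median of all tested genes in each of 4 groups by length, from -0.088 to 0.077, and most points lie above them at every length.

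Other genes of replication and the cell cycle, from lists written by function, moved the same way in most lists. For comparison, 29.3% of all tested genes were called higher and 31.3% lower. Of 26 accessory factors of the replication fork, 17 rose and 3 fell, with a median log2 fold change of 0.46. Chtf18, of an alternative clamp loader, rose by 1.22 and Recql4, a helicase that takes part in origin firing, by 1.10, while Pold4, the smallest subunit of polymerase delta, fell by 0.57 and Mcmbp, an MCM-binding protein, by 0.20. The groups overlapped for Mcmbp, and it was not called with equal library sums (-0.05, limma adjusted p = 0.52). Of 12 genes that rebuild chromatin and copy DNA methylation behind the fork, 9 rose and 1 fell (median 0.27), led by Uhrf1 (0.64) and its partner Dnmt1 (0.59), with the histone-binding Rbbp7 lower (-0.26). Pold1 and Pold4, subunits of a single polymerase, thus went opposite ways, Pold4 from 24.7, 25.2 and 26.6 in WT to 17.6, 16.9 and 16 in those labelled Sdc1-/-.

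The genes that regulate entry into S phase were divided. Of 20 E2F and RB regulators, 12 rose and 4 fell (median 0.25), with Skp2, which targets inhibitors of Cdk2 for degradation, higher by 0.70 and E2f3 by 0.59. E2f2 fell by 0.55 and Cdkn1a, the inhibitor p21, by 0.48. Of 22 further genes of nucleotide synthesis, 10 rose and 6 fell (median 0.10), with the salvage enzymes Dck (0.56) and Dctd (0.48) higher, and Samhd1, which destroys dNTPs (-0.58), and the mitochondrial kinase Tk2 (-0.40) lower. At 45.5% higher and 27.3% lower, these 22 genes stood nearer to the shares of all tested genes than the other lists did. Of 11 S-phase checkpoint genes 6 rose and none fell (median 0.36), Chek1 by 0.57 and Etaa1 by 0.48.

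Mitotic genes, which act after replication, held the largest log2 fold change of these lists. Of 28, 23 rose and 1 fell (median 0.31). Mki67, the proliferation marker Ki-67, had values of 19.0, 20.1 and 19.1 in WT and 54.9, 57.4 and 56.1 in those labelled Sdc1-/- (1.49, limma adjusted p = 8.0e-07). Cenpf, a kinetochore protein, rose by 1.29, whereas Ccnb1, the cyclin of mitotic entry, fell by 0.13 and was not called lower with equal library sums, where no mitotic gene was. With equal library sums the counts higher and lower were 21 and 1 for the accessory factors, 10 and 1 for chromatin, 13 and 2 for E2F and RB regulators, 14 and 3 for nucleotide synthesis, 9 and 0 for the checkpoint and 26 and 0 for mitosis. With that scaling 43.5% of all tested genes were called higher and 19.5% lower. These lists and the 49 genes come from one set of 6 libraries, so they are not separate evidence.

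**Figure D4:**
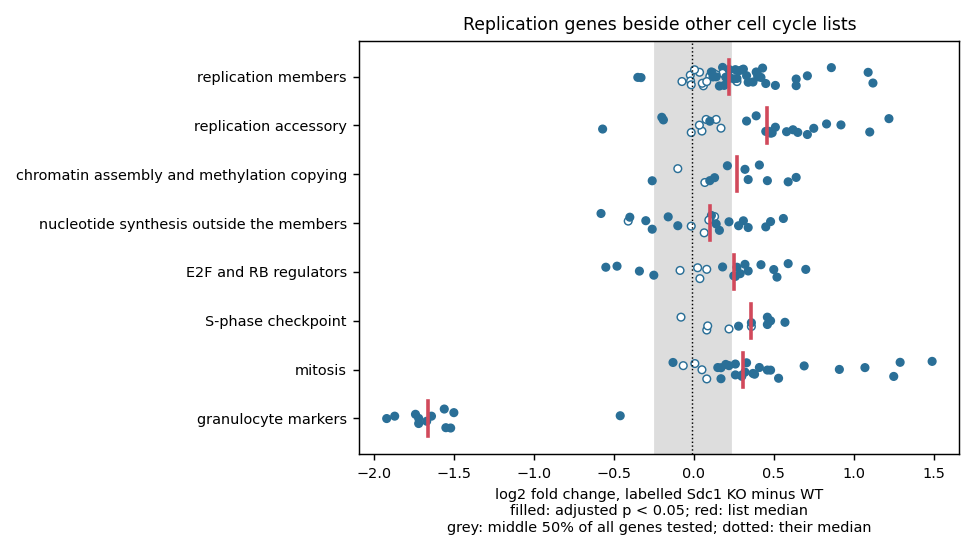
Log2 fold change (horizontal axis, libraries labelled Sdc1-/- minus WT) of each gene in the replication list and in the other cell cycle lists, with granulocyte markers for comparison. Filled points were called, white points were not, red bars are list medians, and the grey band is the middle 50% of all tested genes (-0.24 to 0.23). The 49 replication genes have a median of 0.22 and the granulocyte markers lie at or below -0.46.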

How the data were processed

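RNA-seq libraries (TruSeq stranded mRNA, 150 ng of RNA, single reads of 75 bases) were quantified with kallisto, and sleuth 0.30.0 and the build mm10 are named in the submitters' processing notes. The kallisto version, its strand setting and the transcriptome are not given in the sources used here. The authors deposited a signal per gene and library, TPM rescaled between libraries, and a second table with fold changes, standard errors, p-values and q-values of their own comparison, which was not used. Read depth is unknown, so no counting interval is given. The design assumed TPM, and its test was kept for the rescaled values.

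limma 3.58.1 (R 4.3.3) was fitted on log2(value + 1) to the genes whose mean over all 6 libraries reached 1, with no term but group, eBayes with a trend, and Benjamini-Hochberg adjustment at 0.05. Fold changes on this scale understate those of low genes. Identifiers of 35454 genes were matched to GENCODE M21, which gave coordinates, lengths and 31-base words. Of the 49 genes, 40 shared under 5% of their words with other genes. Other steps ran in Python 3.11.15 with pandas 2.3.3, numpy 2.4.6 and matplotlib 3.10.9.

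Members, lists and tests were chosen with earlier results of these data known. In each role, library values are printed for the member with the highest mean and those with the largest called rise and fall. Outside the members, the list counts are given with at most 2 rises and 2 falls. Rfc2, Gins3, Orc2 to Orc4, Dbf4, Pole, Pola1, Mcm7, Prim2, Rpa1 and Pold4 were given library values or singled out after their values were seen. Alternatives changed the pseudocount, minimum mean, scaling, variance trend, replicate block and libraries.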

Additional observations from a re-analysis of the deposited data

How the results depend on the processing

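Of the 35 replication genes called, 27 kept their direction and call under all 16 alternatives, and none reversed. The counts were 26 to 34 higher and 2 lower on leaving out 1 library (all genes 3083 to 3353 and 3380 to 3608). They were 37 and 2 after quantile normalization (all genes 3776 and 3452). With no minimum mean they were 28 and 2 (all genes 3931 and 4091, out of more genes, since those of mean under 1 were kept). The other 8 lost the call on leaving out a library: Mcm6 without WT replicate 3 or Sdc1 KO replicate 2 (adjusted p = 0.066 and 0.076), Pold2 without WT replicate 2 or 3 (0.057 and 0.05), Rpa2 without Sdc1 KO replicate 2 or 3 (0.053 and 0.05), Gins2 without Sdc1 KO replicate 1 or 2 (0.051 and 0.058), and Pcna (0.061 to 0.066), Orc3 (0.086 to 0.11), Rrm2 (0.098 to 0.14) and Tk1 (0.051 to 0.13) without any of 4 or 5 libraries, all in limma, where the cause was not tested. Of these 8, Gins2, Orc3, Pcna, Rrm2 and Tk1 also lost the call with no minimum mean. Rrm2 and Tk1 lost it without the variance trend as well. Uncalled genes gained a call without WT replicate 2 (Orc6 0.0029, Gins1 0.019 and Ccne1 0.024, adjusted p) or Sdc1 KO replicate 1 (Orc4, 0.047).

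With each library scaled to a sum of 1000000, all genes called lower went from 3810 to 2367 and higher from 3564 to 5290, and the log2 fold changes of Mcm7 (0.13), Rfc2 (0.13), Prim2 (0.13) and Gins4 (0.071) turned positive. Quantile normalization turned Mcm7 (0.041), Rfc2 (0.079) and Ccne2 (-0.02), and removing the trend with length and GC content turned Gins4 (0.0022) and Prim2 (0.028). Leaving out a library gave -0.05 to 0.0024 for Mcm7 and -0.078 to 0.046 for Ccne2.

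Deviations from the group means correlated at r = 0.151, -0.00828 and 0.0185 for same-numbered libraries. Libraries of different number gave -0.157 to 0.142, and the numbers were not taken as pairs. With the replicate block 33 genes were higher and 2 lower (all genes 3653 and 3971), Rrm2 lost its call (adjusted p = 0.059) and Orc4 gained one (0.0021). Depth is unknown and cannot be set against small changes.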
